A study of Mus musculus with 18 samples.

Results

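The large (60S) subunit of the cytosolic ribosome is built on a common set of proteins, and the mRNAs of 45 of them were followed through polysome gradients of mouse embryonic stem cells (ESCs). The genes were chosen by name and a filter on level, with earlier results of these data known. The name was a protein-coding mouse symbol of Rpl and a number, with or without a final a, or a P-stalk symbol (*Rplp0*, *Rplp1* or *Rplp2*). The filter was at least 3 CPM (reads of a gene scaled to a common library total) in 3 or more of the 18 libraries. Of 46 symbols that fit the name, 45 passed, among 12705 genes that passed in all and 11773 that were protein-coding, and *Rpl24* was below the filter. The cells were V6.5 ESCs, an established mouse line, grown in serum with LIF and 2i (PD0325901 and CHIR99021) and treated with cycloheximide at 100 ug/ml for 2 min before lysis. Wild-type (WT) cells were set against *Ddx6* knockout (KO) cells made with Cas9, which lack the DEAD-box RNA helicase DDX6, a partner of the decapping and deadenylation machinery. Each lysate was run on a sucrose gradient, and RNA from 3 fractions was made into libraries that read the 3′ ends of mRNAs: the monosome, mRNAs with 2 to 4 ribosomes (low polysome), and mRNAs with 4 or more (high polysome). Each of the 6 groups held 3 libraries, 1 per gradient. The KO gradients came from 2 clones, gradient 1 from clone 1 and gradients 2 and 3 from clone 2, so that differences between these clones and between gradients cannot be told apart.

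Ribosomal proteins have to be supplied in matched numbers, and cells adjust that supply mostly at the step of translation. Most mRNAs of ribosomal proteins and elongation factors begin with a cytosine followed by a run of pyrimidines, the terminal oligopyrimidine (TOP) tract, and such mRNAs move as a group between polysomes and lighter, untranslated particles when mTOR signalling or LARP1 binding changes. In a gradient, the share of an mRNA that sediments with few or many ribosomes also follows its coding length, since a short reading frame holds fewer ribosomes.

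The TOP tract is the sequence feature that marks these genes, and the annotated start sites of a few of them are shown for that reason, 15 bases before and 15 bases from the start. The RefSeq promoter table (GRCm38.p6) held 33 of the 45 members. Capitals mark a stretch that begins with C and goes on with at least 4 more C or T bases on the transcribed strand, beginning within 5 bases of the annotated start. The first 7 windows are of the members in which the stretch begins at the start itself, and the other 5 are of members to which the results below return.
Rpl14, chr9:120571502-120571531, plus strand: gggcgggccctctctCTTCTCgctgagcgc
Rpl15, chr14:18270972-18271001, minus strand: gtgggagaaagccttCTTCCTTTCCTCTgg
Rpl28, chr7:4792950-4792979, plus strand: ccgcctctcgtgtctCTCTTTCCgtctccg
Rpl35, chr2:39005117-39005146, minus strand: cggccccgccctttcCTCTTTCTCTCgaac
Rpl35a, chr16:33056467-33056496, plus strand: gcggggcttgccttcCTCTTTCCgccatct
Rpl38, chr11:114668565-114668594, plus strand: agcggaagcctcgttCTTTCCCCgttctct
Rplp2, chr7:141447636-141447665, plus strand: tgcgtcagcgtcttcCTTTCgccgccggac
Rplp0, chr5:115559452-115559481, plus strand: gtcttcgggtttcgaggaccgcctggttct
Rpl4, chr9:64173372-64173401, plus strand: ttccttttcctgtgggagcagccgggtaga
Rpl5, chr5:107900513-107900542, plus strand: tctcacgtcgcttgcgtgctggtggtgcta
Rpl9, chr5:65391417-65391446, minus strand: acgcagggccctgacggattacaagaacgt
Rpl41, chr10:128549154-128549183, minus strand: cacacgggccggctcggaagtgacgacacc
The stretch began exactly at an annotated start in 7 of 33 members (21.2%), against 813 of 27025 genes of the table (3.01%), and within 5 bases of one in 16 members (48.5%), against 21.2% of all genes. *Rpl35a* has 3 annotated starts, of which only the window shown carries the stretch. Members without an entry in the table included *Rplp1*, *Rpl3*, *Rpl30*, *Rpl36*, *Rpl8*, *Rpl23a*, *Rpl29*, *Rpl17*, *Rpl21*, *Rpl7* and *Rpl32*. A match of letters is a description of the annotated window and does not show where transcription began in these cells.

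Gene counts summed to between 2543617 and 11474550 per library. *Ddx6* itself was at 143 to 212 CPM in the 9 WT libraries and at 9.64 to 82.4 CPM in the 9 KO libraries, with the highest KO value of each fraction in gradient 1. All 10 ESC markers passed the filter and summed to between 2485 and 6008 CPM in WT and between 2443 and 4263 CPM in KO. Of markers of other cells, the 5 trophoblast genes summed to 4.44 to 14 CPM in WT and 57.4 to 153 CPM in KO. Of these, 3 passed the filter, with the defining *Cdx2* and *Elf5* below it. The 5 primed epiblast genes, of which 4 passed, summed to 132 to 219 CPM in WT and 51.2 to 120 CPM in KO, with *Fgf5* at 0. The 5 primitive endoderm genes, of which 1 passed, summed to 4.15 to 11.3 CPM in WT and 7.56 to 26 CPM in KO. The 7 fibroblast genes, of which 2 passed, summed to 4.61 to 10.8 CPM in WT and 5.65 to 11.2 CPM in KO, with *Col3a1* at 0. The part of these marker differences in the results on ribosomal protein mRNAs was not tested. The authors counted only reads that map to 1 place, and ribosomal protein genes have many processed pseudogenes, so the counts of a member leave out reads it shares with its copies. Here 178 pseudogenes named after members held 30807 counts, more than 10% of the member's own count for 14 members, up to 202% for *Rpl36*. Levels of different members are therefore not set against each other, and every fitted difference is of 1 gene between libraries, on a scale normalised to the other genes of the library. In a bulk lysate, fewer cells with an mRNA and less of it per cell cannot be told apart.

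In 3 libraries, WT low polysome gradient 3, KO low polysome gradient 2 and KO high polysome gradient 3, members deviated together from the other 2 libraries of their group. The likeness was closest between the first and second. *Rpl30*, *Rpl27*, *Rpl35a*, *Rpl15* and *Rpl36a* lay below the mean of their group's other libraries by more than 1 on the log2 scale in the first of these, from -1.11 for *Rpl36a* to -1.75 for *Rpl30*, and by -1.07 to -1.51 in the second. *Rpl27*, a protein mutated in some patients with Diamond-Blackfan anaemia, had the lowest value in the third, at -2.38. Over the 45 members, the deviations of the first and second library correlated with r = 0.86, against 0.56 over all 12705 genes. With the third library, r was 0.66 for the first and 0.67 for the second, against 0.44 and 0.56 over all genes. These are correlations across genes, which are not independent replicates, and are given as a description. For the members named below, an interaction for the high polysome whose call changed without these libraries is also given without them. That fit was chosen after these deviations were seen. Leaving out a library in which a member is low raises the mean of its group, so the calls of that fit are given as a description.

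**Figure D1:**
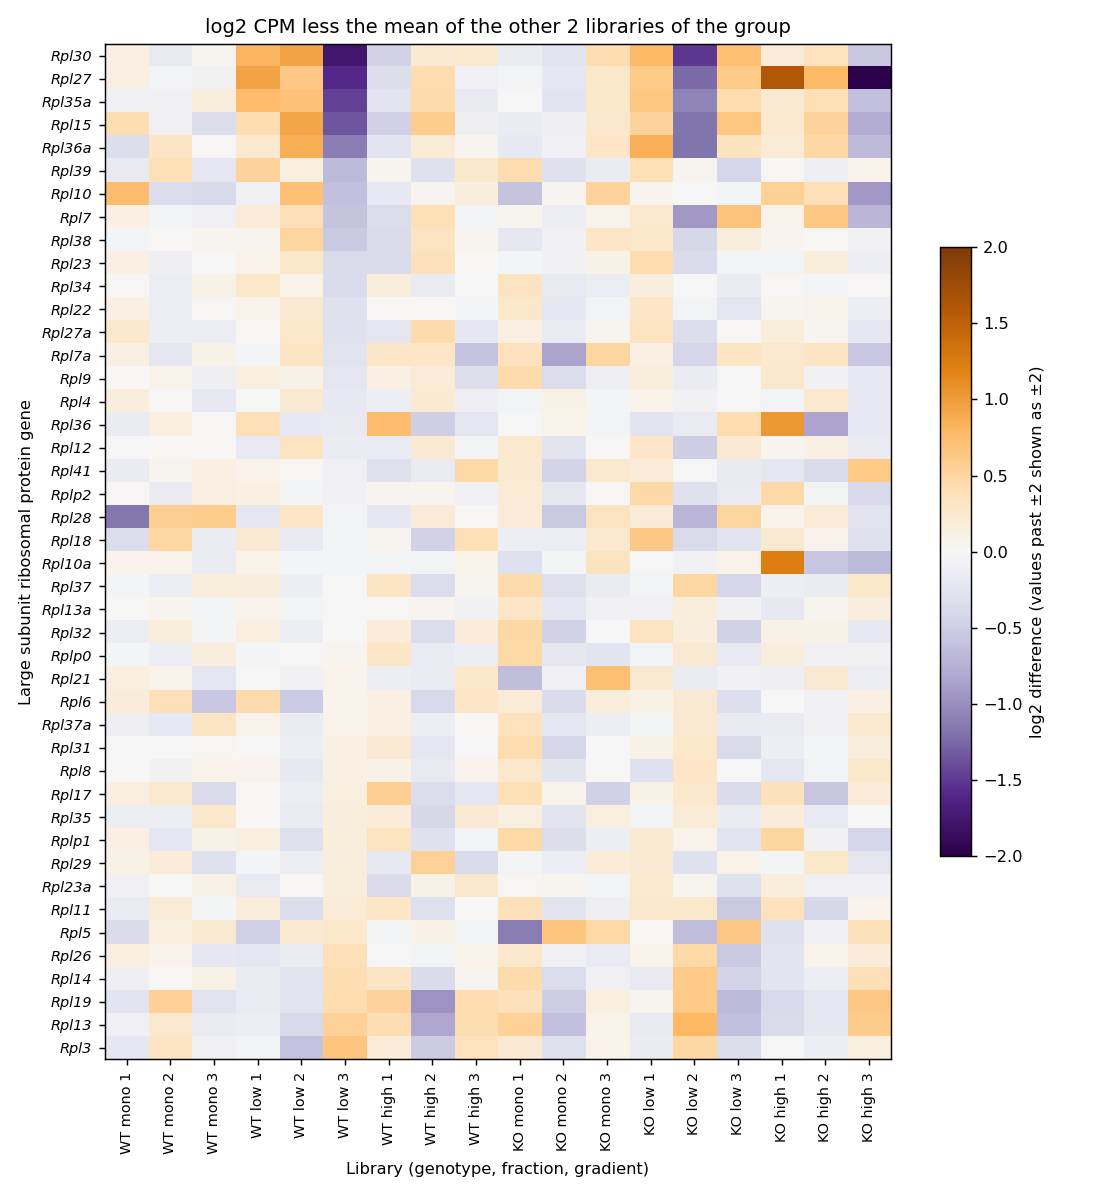
Heat map of the log2 CPM of 44 of the 45 members (rows) in each of the 18 libraries (columns) less the mean of the other 2 libraries of its group. *Rpl27*, *Rpl30*, *Rpl35a*, *Rpl15* and *Rpl36a* are low together in WT low polysome gradient 3 and KO low polysome gradient 2, and *Rpl27* is lowest, at -2.38, in KO high polysome gradient 3.

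Among the 3 fractions sequenced from WT cells, the mRNAs of 60S proteins lay toward the monosome far more than the average mRNA. Particles lighter than the monosome were not sequenced, so mRNA held there is outside all ratios given here. The 45 members together took 3.51, 3.44 and 3.58% of the gene counts in the 3 WT monosome libraries. In the WT low polysome they took 1.71, 1.73 and 1.71%, and in the WT high polysome 1.09, 1.06 and 1.15%. These shares fell stepwise with no overlap between fractions. Between high polysome and monosome, 41 of 45 members were lower and 0 were higher (limma, adjusted p below 0.05), against 32.2% of all genes tested called lower and 28.9% called higher. At an unadjusted p below 0.05 the counts were again 41 and 0, and edgeR and DESeq2 each gave 41 and 0. Here and below, shares of all genes called are those of limma at the adjusted threshold with all libraries. No such share is given for unadjusted counts or for the other tools. The median member was lower by 2.91-fold (log2 -1.54), with a range from -4.27 to -0.08, while the median of all genes was at -0.018. *Rpl19*, *Rpl15*, *Rpl27* and *Rpl36a*, the 4 not called, had differences of -0.08, -0.12, -0.29 and -0.47. Taken gradient by gradient, the median member's log2 ratio of high polysome to monosome, called the translation level here, was -1.46, -1.55 and -1.62 (mean -1.54 ± 0.0775 SD), against a mean of 0.06 over protein-coding genes.

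The low polysome was depleted of the same group. Against the monosome, 40 of 45 members were lower in the WT low polysome and 0 higher (limma, adjusted p below 0.05), with backgrounds of 22.8% of genes called lower and 20.4% called higher, and the median member was lower by 2.38-fold (log2 -1.25). Without adjustment the counts were 40 and 0, and they were 40 and 0 by edgeR and by DESeq2. Between the high and the low polysome the members went both ways: 7 were higher and 17 lower, with backgrounds of 29.5% and 32.6%, with a median of -0.23 and a range from -2.88 for *Rpl41* to 2.07 for *Rpl15*. With a trend on coding length over all genes removed, these counts turned to 17 higher and 5 lower with a median of 0.34. The shares of all genes called after that removal are not given here.

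**Figure D2:**
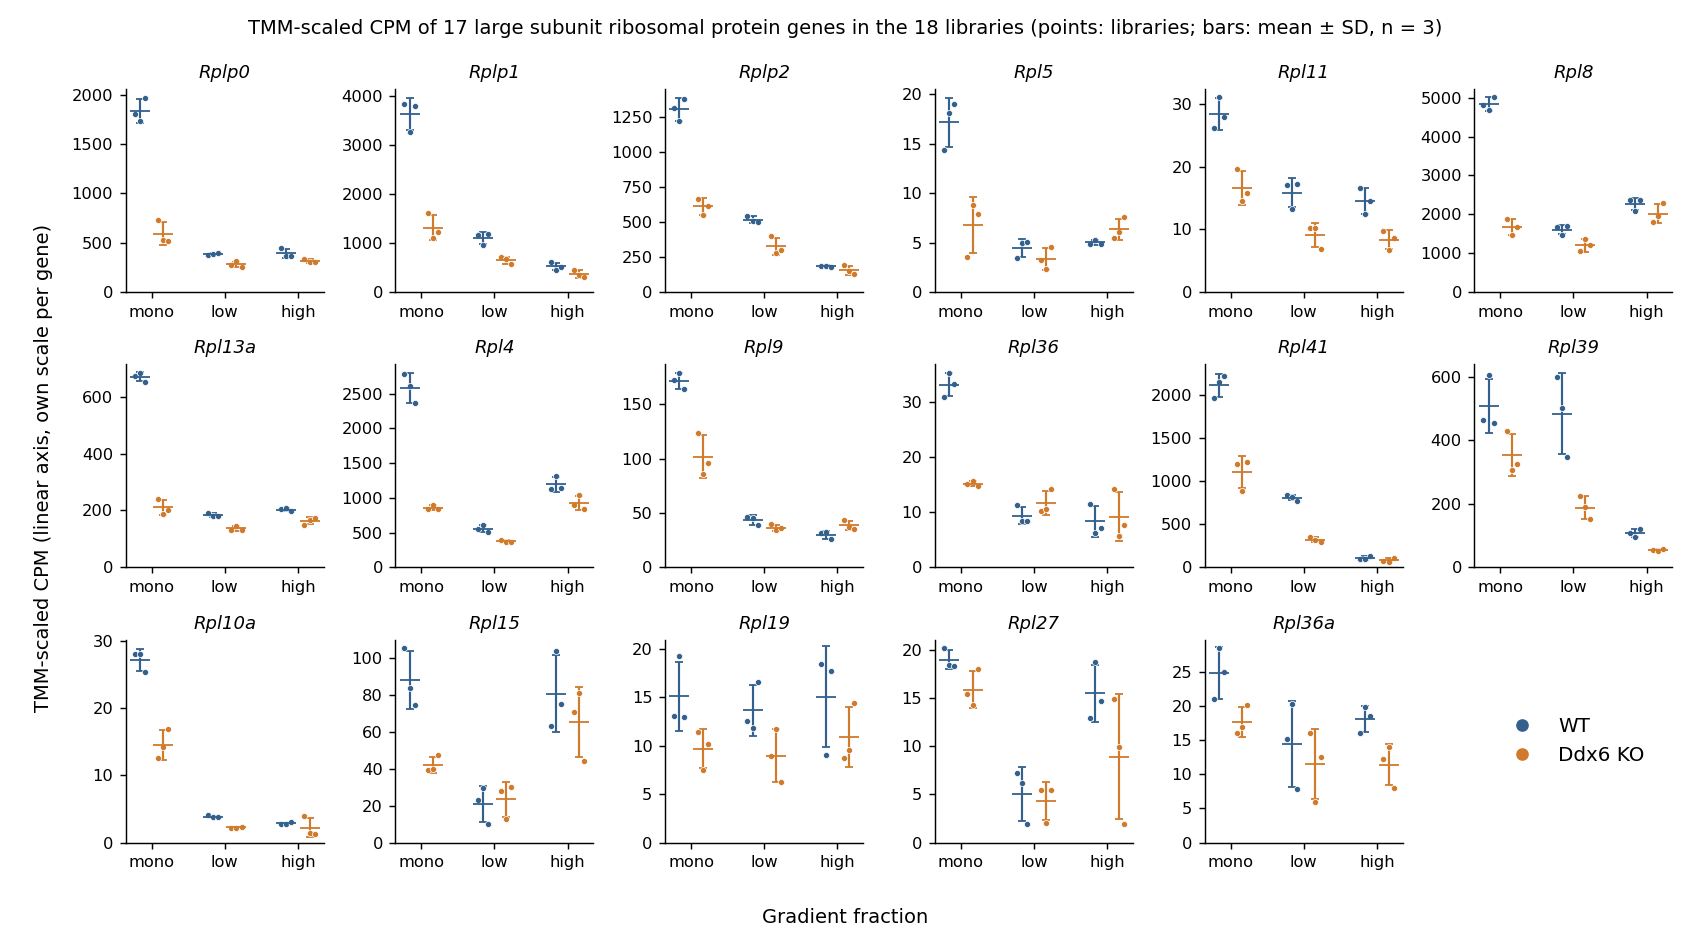
CPM of the 17 members named in full, in the 3 fractions of WT and KO gradients. Points are single libraries and bars the mean and SD of 3, each panel on its own linear axis. In WT, *Rpl41* goes from between 1963 and 2225 CPM in the monosome to between 95.3 and 135 CPM in the high polysome, and *Rplp0*, *Rpl8*, *Rpl13a* and *Rpl4* have the most negative log2 differences between genotypes in the monosome.

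Most members were lower in KO than in WT cells in the monosome, fewer passed in the polysome fractions, and the median difference was most negative in the monosome. In the monosome, 42 of 45 members were lower in KO than in WT and 0 were higher (limma, adjusted p below 0.05), with backgrounds of 20.1% called lower and 18.6% called higher. Without adjustment 42 and 0 passed, while edgeR called 41 lower and DESeq2 42. The median member was lower by 2.15-fold (log2 -1.10), from -1.68 for *Rpl13a* to -0.26 for *Rpl27*, and all 3 KO libraries lay below all 3 WT libraries for 44 of 45 members, which held for 27.1% of all genes. The monosome call was lost in some of 15 alternative fits for *Rpl7a*, *Rpl35a*, *Rpl39*, *Rpl32*, *Rpl30* and *Rpl10*, and held in 9, 10, 12, 12, 13 and 14 of them. In the low polysome, 28 members were lower and 0 higher, against 24.3% and 23.4% of all genes, with a median difference of 1.49-fold (log2 -0.57) and a range from -1.34 for *Rpl39* to 0.32 for *Rpl36*. Without adjustment these counts were 31 and 0, and edgeR and DESeq2 each called 29 lower. All KO low polysome libraries lay below the WT libraries for 30 members, with a background of 26.1%. In the high polysome, 22 members were lower and *Rpl9* alone was higher, against backgrounds of 21.1% and 25.3%, with a median of -0.47 and a range from -1.25 for *Rpl27* to 0.37 for *Rpl9*. KO libraries did not overlap WT libraries and were lower for 25 members (26.1% of all genes), and were higher for 2 (29% of all genes).

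The 22 called lower in the high polysome became 14 without KO gradient 3 and 9 after a trend on coding length was subtracted. Neither of these fits is set beside a share of all genes here. By fraction, 20 members were lower in all 3, 8 in the monosome and low polysome, 12 in the monosome alone, *Rpl9* in the monosome with a higher high polysome, *Rpl7* in the monosome and high polysome, and *Rpl27* in the high polysome alone. *Rpl19* and *Rpl36a* passed in no fraction. These counts by pattern describe the members alone, since the share of all genes with each pattern is not given here. Of all gene counts, the members took 1.90, 1.54 and 1.70% in the KO monosome. The KO low polysome values were 1.17, 1.09 and 0.968%, and those of the KO high polysome 0.805, 0.821 and 0.821%. Every KO share was below every WT share of the same fraction.

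**Figure D3:**
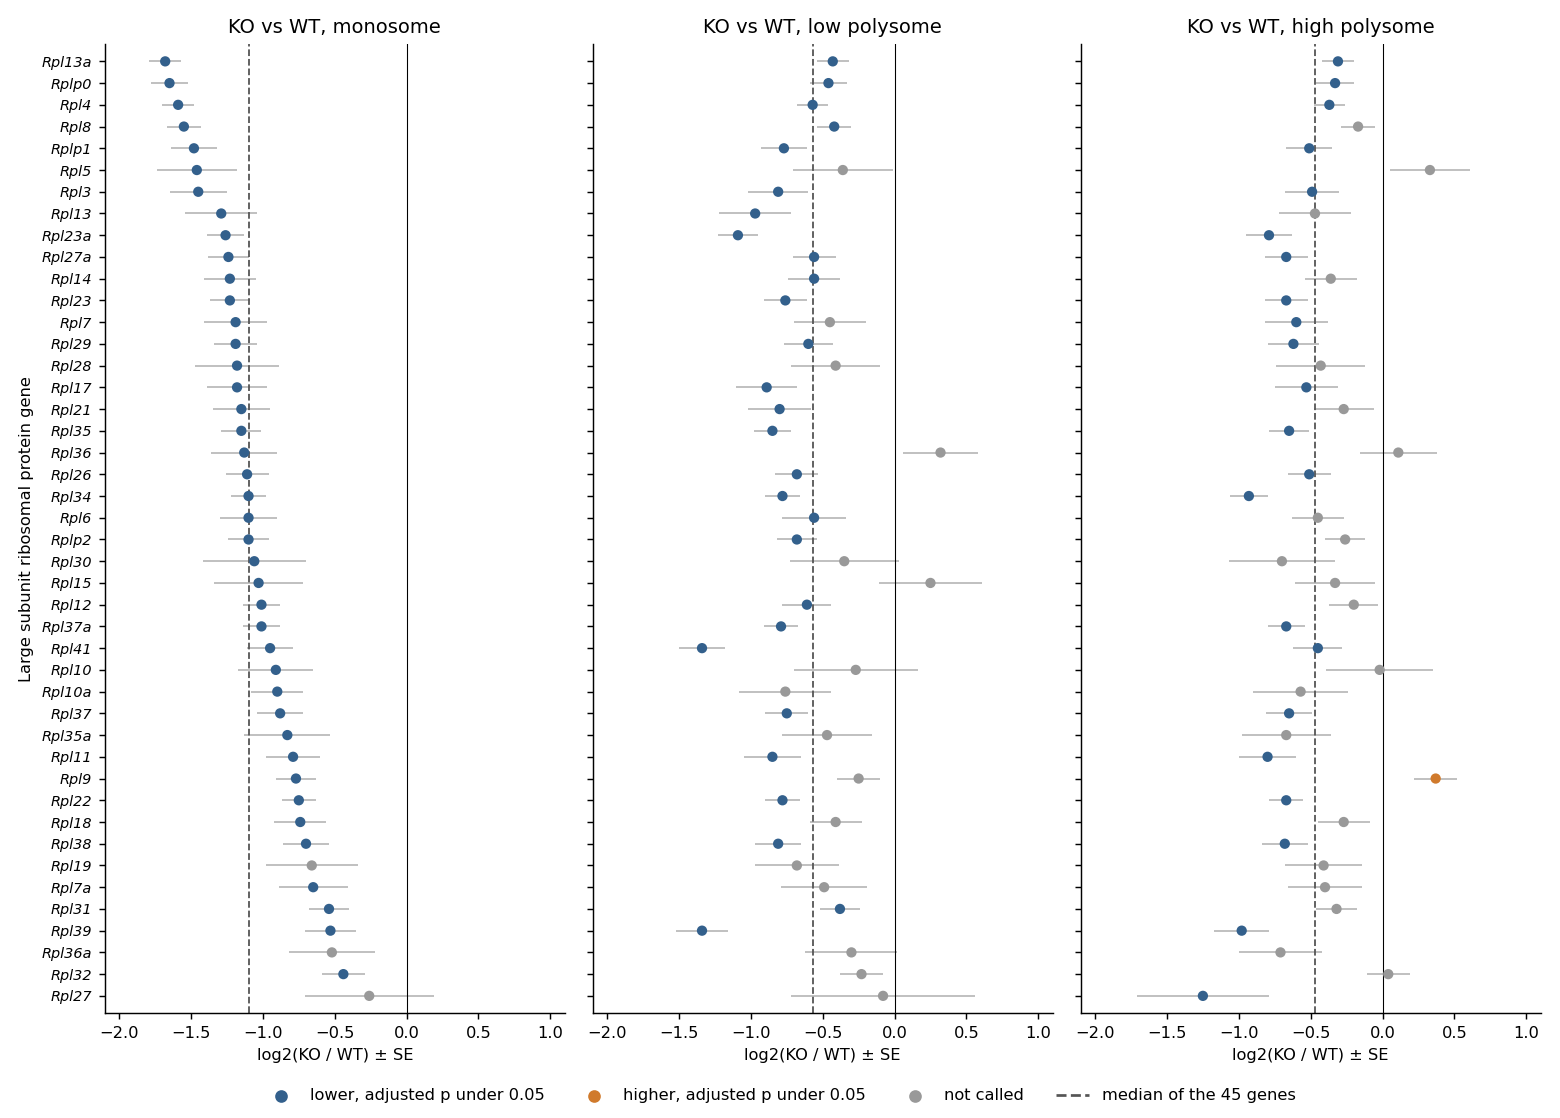
Log2 of KO over WT with its standard error for 44 of the 45 members, in 1 panel per fraction, and the median of all 45 as a dashed line. The median of -1.10 in the monosome lies lower than those of the low polysome (-0.57) and high polysome (-0.47), and *Rpl9* is the only member called higher in a fraction.

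The translation level was higher in KO than in WT for a part of the members. The interaction term, KO against WT for the log2 ratio of high polysome to monosome, was positive with an adjusted p below 0.05 for 13 of 45 members and negative for 0 (limma), while 10.7% of all genes were called higher and 7.09% lower. Without adjustment 24 passed as higher and 0 as lower, and edgeR and DESeq2 each called 12 and 0, counts with no share of all genes beside them. The median over the members was 0.57, with a range from -0.99 to 1.79, and the median of all genes was 0.022. With scaling by library size alone, which shifts every gene of the contrast alike, the median of all genes was -0.102 and that of the members 0.45. The 13 were *Rpl5*, *Rpl13a*, *Rpl8*, *Rplp0*, *Rpl36*, *Rpl4*, *Rpl9*, *Rplp1*, *Rpl3*, *Rpl21*, *Rpl14*, *Rplp2* and *Rpl12*, and the rest did not pass. After a trend on coding length was subtracted, 28 were called higher, with a median of 1.07, and leaving out 1 gradient at a time gave 9 to 13. No share of all genes is given for these alternative fits, and the 10.7% above belongs to the main fit alone.

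In single gradients the median member's translation level was -0.97, -0.84 and -1.15 in KO (mean -0.98 ± 0.159 SD), above each of the WT values given earlier, while the mean over protein-coding genes was 0.11. The mean was higher in KO for 41 of 45 members, a count given without a share of all genes. All KO gradients lay above all WT gradients for 19 members, against 21.2% of all genes. For the ratio of low polysome to monosome, 5 members had a positive interaction and 0 a negative one, with backgrounds of 2.31% and 2.39%. Without adjustment these counts were 15 and 1, edgeR called 5 and 0, and DESeq2 called 7 and 1. The median was 0.40. *Rpl36*, *Rpl13a*, *Rplp0*, *Rpl8* and *Rpl4* were the 5, and the fit shares its monosome libraries with that of the high polysome. Without the 3 libraries that stood apart, 9 were called higher and *Rpl39* lower, and for the high polysome 19 were called higher and 0 lower, with *Rpl21* no longer among them. These 3 libraries were chosen after their values were seen, and the shares of all genes called in that fit are not given here. In 16 alternative fits, *Rpl21* passed 4 times.

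**Figure D4:**
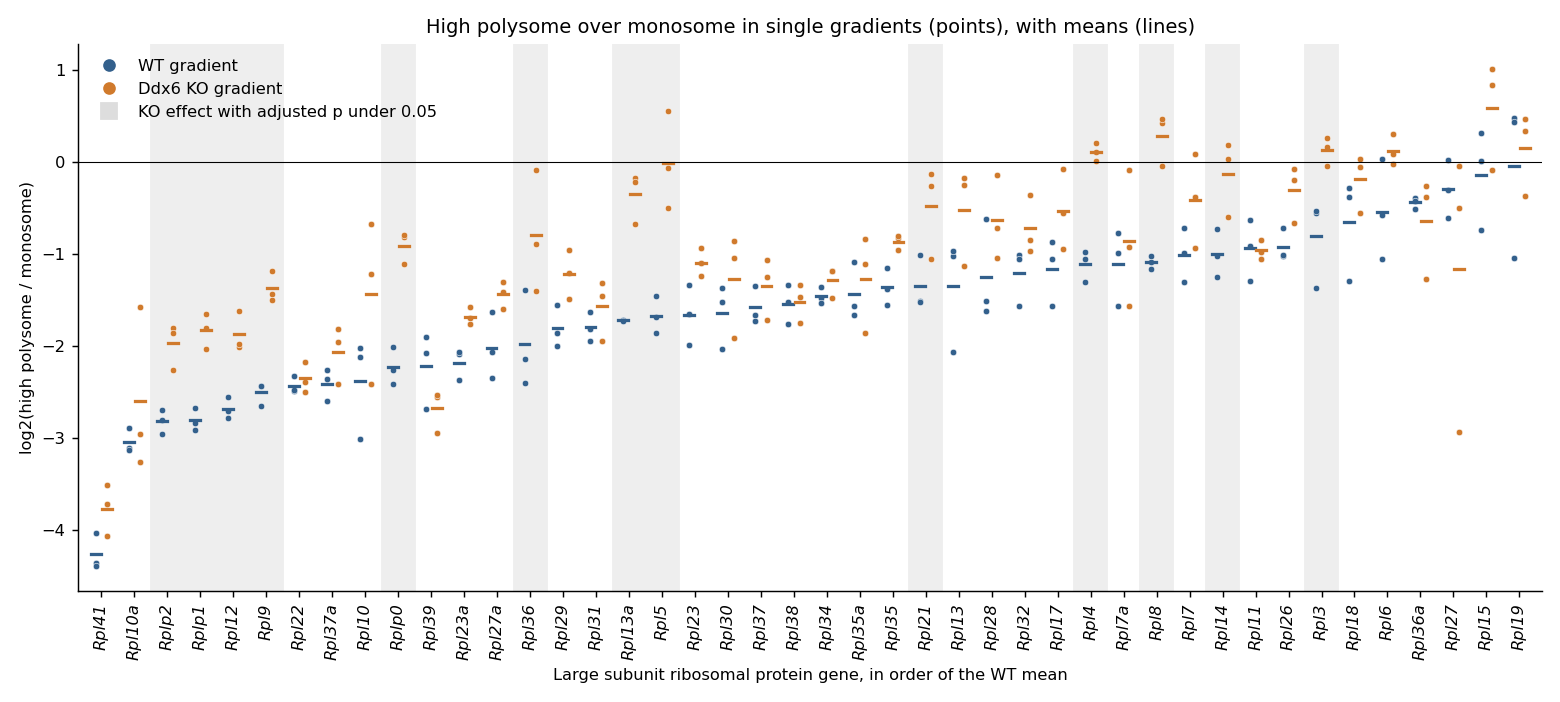
Log2 ratio of high polysome to monosome for 44 of the 45 members in each WT and KO gradient, ordered by the WT mean (lines show means), with a grey band behind the members whose ratio differed between genotypes. The WT values of *Rpl41* lie between -4.39 and -4.03, and the KO values of *Rpl4*, at 0.01 to 0.21, lie above its WT values of -1.31 to -0.98.

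Positions below are gene spans in mm10, ± stands for the SD of 3 gradients, and fitted differences are limma's on the log2 scale. The P-stalk is the flexible arm of the 60S subunit that calls in the elongation factors, with *Rplp0* as its base and *Rplp1* and *Rplp2* as the acidic proteins that hang from it. *Rplp0* (chr5:115559467-115563727, plus strand) was at 1808, 1734 and 1969.6 CPM in the WT monosome libraries, 379, 384 and 397 CPM in the WT low polysome and 447, 363 and 370.2 CPM in the WT high polysome. For *Rplp0* in KO, the values were 725, 532 and 520.2 CPM, 274, 312 and 258 CPM and 337, 300.2 and 301 CPM in the same order of fractions. KO values were below all WT values in each fraction, and the gap was widest in the monosome. The fitted difference there was -1.65 (SE 0.13, adjusted p = 8.04e-09) on the log2 scale, against -0.33 (SE 0.13, adjusted p = 0.0447) in the high polysome, a call that held in 7 of 16 alternative fits. Its translation level rose in KO by 1.32 (SE 0.18, adjusted p = 0.000176), and the ratio of low polysome to monosome by 1.19 (SE 0.18, adjusted p = 0.00193). *Rplp1* (chr9:61913284-61914542, minus strand) was at 3846, 3269 and 3813 CPM in the WT monosome libraries, 1170.3, 959.5 and 1188 CPM in the WT low polysome and 605, 456 and 508 CPM in the WT high polysome. For *Rplp1* in KO, the values were 1608, 1113 and 1231 CPM, 712, 667 and 570.2 CPM and 461, 353 and 300.2 CPM in the same order of fractions. Its KO libraries lay below the WT libraries in the monosome and low polysome and met them in the high polysome, where the lowest WT value was 456 and the highest KO value 461 CPM. The translation level of *Rplp1* rose by 0.97 (SE 0.23, adjusted p = 0.00682). *Rplp2* (chr7:141447370-141451585, plus strand) was at 1312, 1219 and 1380.3 CPM in the WT monosome libraries, 544, 507 and 498 CPM in the WT low polysome and 188, 188 and 178 CPM in the WT high polysome. For *Rplp2* in KO, the values were 666, 549.5 and 617 CPM, 397, 281 and 297 CPM and 191, 151 and 128 CPM in the same order of fractions. The monosome and low polysome values did not overlap between genotypes, and the high polysome values did. *Rplp2*, with the third lowest WT translation level among the members, rose by 0.84 (SE 0.20, adjusted p = 0.00753) in KO. *Rpl12*, which sits at the root of the same stalk, was at 90.1 ± 0.74 CPM in the WT monosome, with a ratio of -2.68 ± 0.119 in WT and -1.87 ± 0.215 in KO, and the difference of 0.81 (SE 0.22, adjusted p = 0.0141) passed, but not when WT gradient 1 or 3, or KO gradient 2 or 3, was left out.

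A pair of proteins carries the 5S rRNA into the subunit, *Rpl5* and *Rpl11*, and the same complex binds the p53 ligase Mdm2 when it is left unassembled. *Rpl5* (chr5:107900502-107909005, plus strand) was at 14.3, 18.1 and 19 CPM in the WT monosome libraries, 3.42, 4.91 and 5.05 CPM in the WT low polysome and 4.86, 5.28 and 4.88 CPM in the WT high polysome. For *Rpl5* in KO, the values were 3.56, 8.79 and 7.92 CPM, 3.27, 2.31 and 4.54 CPM and 5.44, 6.07 and 7.54 CPM in the same order of fractions. KO values lay below WT values in the monosome, overlapped them in the low polysome and lay above them in the high polysome, where the difference of 0.33 (SE 0.28, adjusted p = 0.353) did not pass. *Rpl5* had the largest rise in translation level of all members, 1.79 (SE 0.39, adjusted p = 0.0047), on only 17 or more reads in each library. Its single-gradient translation levels were -1.46, -1.68 and -1.86 in WT and 0.55, -0.50 and -0.07 in KO. *Rpl11* (chr4:136028265-136053428, minus strand) was at 26.2, 31.2 and 27.9 CPM in the WT monosome libraries, 17.1, 13.3 and 17.3 CPM in the WT low polysome and 16.7, 12.5 and 14.6 CPM in the WT high polysome. For *Rpl11* in KO, the values were 19.7, 14.5 and 15.8 CPM, 10.2, 10.3 and 6.9 CPM and 9.76, 6.71 and 8.56 CPM in the same order of fractions. KO values lay below WT values in all 3 fractions and by nearly the same amount, with differences of -0.79, -0.85 and -0.80. Its translation level was thus -0.94 ± 0.333 in WT and -0.96 ± 0.101 in KO, and the interaction of -0.01 (SE 0.28, adjusted p = 0.988) did not pass. Whether the responses of *Rpl5* and *Rpl11* differed from each other was not tested.

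Nascent chains leave the ribosome through a tunnel whose wall is formed in part by *Rpl4*, *Rpl17* and *Rpl39*. *Rpl4* (chr9:64173375-64178666, plus strand) was at 2791, 2609 and 2363 CPM in the WT monosome libraries, 552, 612 and 506 CPM in the WT low polysome and 1127, 1319 and 1141 CPM in the WT high polysome. For *Rpl4* in KO, the values were 834, 897 and 838 CPM, 389, 360.5 and 370.3 CPM and 903, 1037 and 844 CPM in the same order of fractions. *Rpl4* has the longest reading frame of the members, and WT and KO libraries did not overlap in any fraction. Its translation level rose from -1.11 ± 0.171 to 0.11 ± 0.0991 (SD, n = 3), an interaction of 1.23 (SE 0.16, adjusted p = 0.000101). In WT it was higher in the high than in the low polysome by 1.1 (SE 0.11, adjusted p = 5.21e-08). *Rpl39* (chrX:37082520-37085402, minus strand) was at 463, 605 and 453 CPM in the WT monosome libraries, 600.2, 502 and 346 CPM in the WT low polysome and 109, 94 and 121 CPM in the WT high polysome. For *Rpl39* in KO, the values were 428, 307 and 326 CPM, 223, 189 and 153 CPM and 55.1, 52 and 56.1 CPM in the same order of fractions. WT and KO values did not overlap in any fraction, and the difference in the low polysome was -1.34 (SE 0.18, adjusted p = 6.07e-06), the most negative of any member there. The reading frame of *Rpl39* is short, and its WT low polysome values overlapped those of the monosome while the high polysome lay below both, with a difference between high and low polysome of -2.13 (SE 0.18, adjusted p = 5.32e-09). Its translation level did not pass the test between genotypes, at -0.46 (SE 0.27, adjusted p = 0.241). *Rpl17* was at 30.4 ± 4.45 CPM in the WT monosome, with a ratio of -1.16 ± 0.355 in WT and -0.53 ± 0.434 in KO, and its interaction of 0.65 (SE 0.30, adjusted p = 0.14) did not pass.

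Around the mouth of the tunnel lie *Rpl19*, *Rpl23a*, *Rpl26*, *Rpl31* and *Rpl35*, where targeting factors and chaperones dock. None of the 5 passed the test of the interaction with all libraries, which had a median of 0.47. *Rpl19* (chr11:98026710-98030492, plus strand) was at 13.1, 19.2 and 13 CPM in the WT monosome libraries, 12.5, 11.8 and 16.6 CPM in the WT low polysome and 18.4, 9.07 and 17.7 CPM in the WT high polysome. For *Rpl19* in KO, the values were 11.4, 7.47 and 10.2 CPM, 8.89, 11.7 and 6.29 CPM and 8.76, 9.53 and 14.4 CPM in the same order of fractions. The ranges of the fractions overlapped within WT, and those of the genotypes overlapped in the high polysome. *Rpl19* thus had the WT translation level closest to 0 among the members, -0.08 (SE 0.30, adjusted p = 0.823), and its pseudogene copies held 58.1% as many counts as the gene itself. *Rpl23a*, the docking site for the signal recognition particle, was at 77.7 ± 3.39 CPM in the WT monosome, with a ratio of -2.18 ± 0.164 in WT and -1.68 ± 0.0902 in KO. For *Rpl26*, which is mutated in some patients with Diamond-Blackfan anaemia, the mean was 645 ± 54.4 CPM in the WT monosome and the translation level -0.92 ± 0.17 in WT and -0.31 ± 0.304 in KO. The interaction of *Rpl26* was 0.60 (SE 0.21, adjusted p = 0.0536) with all libraries and passed without the 3 that stood apart, at 0.54 (SE 0.18, adjusted p = 0.0378). *Rpl31* was at 266 ± 2.9 CPM in the WT monosome, with a ratio of -1.79 ± 0.156 in WT and -1.57 ± 0.326 in KO. *Rpl35*, a neighbour of *Rpl23a* at the exit, was at 160.4 ± 16.7 CPM in the WT monosome, with a ratio of -1.36 ± 0.203 in WT and -0.87 ± 0.0825 in KO.

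Further proteins with a counterpart in bacteria make up the core of the subunit. *Rpl8* (chr15:76904078-76906314, plus strand) was at 4819.5, 4679 and 5022 CPM in the WT monosome libraries, 1662, 1467 and 1699 CPM in the WT low polysome and 2369, 2089 and 2359 CPM in the WT high polysome. For *Rpl8* in KO, the values were 1869.5, 1467 and 1661 CPM, 1048, 1376 and 1198 CPM and 1813, 1959 and 2285 CPM in the same order of fractions. *Rpl8*, which reaches close to the peptidyl transferase centre, differed in the KO monosome by -1.55 (SE 0.12, adjusted p = 1.29e-08) with no overlap, and its high polysome ranges overlapped. Its translation level rose by 1.37 (SE 0.18, adjusted p = 9.88e-05). *Rpl13a* (chr7:45125558-45128761, minus strand) was at 673, 684 and 653 CPM in the WT monosome libraries, 190.5, 179 and 182 CPM in the WT low polysome and 205, 207 and 196 CPM in the WT high polysome. For *Rpl13a* in KO, the values were 238, 189 and 203 CPM, 131, 147 and 132 CPM and 149.8, 167 and 175 CPM in the same order of fractions. *Rpl13a*, known also for silencing inflammatory mRNAs as part of the GAIT complex, had the most negative KO difference of the monosome, -1.68 (SE 0.11, adjusted p = 6.35e-10). WT and KO values did not overlap in any fraction, and the translation level rose by 1.37 (SE 0.15, adjusted p = 2.81e-05), from -1.72, -1.72 and -1.73 in WT to -0.67, -0.18 and -0.22 in KO. *Rpl9* (chr5:65388364-65391444, minus strand) was at 173, 179 and 164 CPM in the WT monosome libraries, 46.3, 45.6 and 38.7 CPM in the WT low polysome and 31.6, 32.8 and 25.7 CPM in the WT high polysome. For *Rpl9* in KO, the values were 124, 85.6 and 95.7 CPM, 39.5, 34.1 and 36.1 CPM and 43.4, 37.4 and 35.3 CPM in the same order of fractions. *Rpl9* lies near the factor-binding site of the subunit. It was lower in KO in the monosome, at -0.77 (SE 0.14, adjusted p = 0.000164), and higher in the high polysome, at 0.37 (SE 0.15, adjusted p = 0.0498), with no overlap in both. The high polysome call was lost when any 1 gradient was left out and held in 4 of 16 alternative fits, and the rise in translation level was 1.14 (SE 0.20, adjusted p = 0.00119). *Rpl10a* (chr17:28328471-28331033, plus strand) was at 28.2, 28.2 and 25.4 CPM in the WT monosome libraries, 4.03, 3.79 and 3.79 CPM in the WT low polysome and 2.81, 2.79 and 3 CPM in the WT high polysome. For *Rpl10a* in KO, the values were 12.6, 14.2 and 17 CPM, 2.22, 2.17 and 2.36 CPM and 3.88, 1.41 and 1.32 CPM in the same order of fractions. *Rpl10a* forms the stalk that releases spent tRNAs, and its mRNA had the second lowest WT translation level, -3.22 (SE 0.25, adjusted p = 9.61e-10). Its polysome values were between 1.32 and 4.03 CPM, near the filter, and its pseudogene copies held 117% as many counts as the gene. The interaction, 0.34 (SE 0.38, adjusted p = 0.564), did not pass, and KO gradient 1, of clone 1, lay apart at -1.58.

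*Rpl3*, whose finger points at the peptidyl transferase centre, was at 104 ± 13.4 CPM in the WT monosome, with a ratio of -0.81 ± 0.481 in WT and 0.13 ± 0.149 in KO, an interaction of 0.96 (SE 0.27, adjusted p = 0.0199) that no longer passed when WT gradient 2 or either of KO gradients 2 and 3 was left out. *Rpl10*, one of the last proteins to join the subunit, was at 15.2 ± 5.02 CPM in the WT monosome, with a ratio of -2.38 ± 0.545 in WT and -1.43 ± 0.887 in KO. In its lowest library *Rpl10* had 12 reads, and its pseudogene copies held 31.5% as many counts as the gene. Its interaction was 0.89 (SE 0.46, adjusted p = 0.181) with all libraries and 1.28 (SE 0.44, adjusted p = 0.0433) without the 3 that stood apart, where it passed. *Rpl23*, which forms a bridge to the small subunit, was at 418 ± 20.7 CPM in the WT monosome, with a ratio of -1.66 ± 0.321 in WT and -1.10 ± 0.151 in KO, and its interaction went from 0.56 (SE 0.21, adjusted p = 0.0622) to 0.60 (SE 0.19, adjusted p = 0.0269) without these libraries. The core protein *Rpl27a* was at 256 ± 27.5 CPM in the WT monosome, with a ratio of -2.02 ± 0.359 in WT and -1.43 ± 0.153 in KO, and without them its interaction passed at 0.64 (SE 0.20, adjusted p = 0.0261). *Rpl7*, which lies near the 5S rRNA, was at 134 ± 6.43 CPM in the WT monosome, with a ratio of -1.01 ± 0.299 in WT and -0.41 ± 0.513 in KO. Its interaction was 0.59 (SE 0.31, adjusted p = 0.19) with all libraries, and it too passed without these libraries, at 0.83 (SE 0.20, adjusted p = 0.00644). With all libraries, *Rpl3* alone of these 5 core proteins had an interaction that passed. Without the 3 libraries, which were chosen after their values were seen, all 5 did, in a fit whose share of all genes called is not given here. *Rpl10* and *Rpl7* were low in KO high polysome gradient 3, at -0.93 and -0.7 against the other libraries of the group. Leaving that library out raises their KO high polysome means, so these calls are a description.

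The remaining members have no counterpart in bacteria and mostly coat the outside of the subunit. *Rpl41* (chr10:128548114-128549305, minus strand) was at 1963, 2146 and 2225 CPM in the WT monosome libraries, 834, 818 and 774 CPM in the WT low polysome and 95.3, 102 and 135 CPM in the WT high polysome. For *Rpl41* in KO, the values were 1201, 889 and 1222 CPM, 350.5, 317 and 295 CPM and 71.7, 66.8 and 106 CPM in the same order of fractions. *Rpl41*, a peptide of 25 codons that bridges the subunits, had the lowest translation level of all members in WT, -4.27 (SE 0.16, adjusted p = 3.31e-14). WT libraries were above KO libraries in the monosome and low polysome and overlapped them in the high polysome, and the interaction of 0.50 (SE 0.23, adjusted p = 0.141) did not pass. *Rpl36* (chr17:56613416-56614243, plus strand) was at 30.9, 35.2 and 33.2 CPM in the WT monosome libraries, 11.2, 8.41 and 8.47 CPM in the WT low polysome and 11.5, 6.28 and 7.13 CPM in the WT high polysome. For *Rpl36* in KO, the values were 15, 15.7 and 14.8 CPM, 10.2, 10.6 and 14.1 CPM and 14.1, 5.63 and 7.75 CPM in the same order of fractions. *Rpl36* did not overlap between genotypes in the monosome and overlapped in both polysome fractions. Its interaction was 1.24 (SE 0.36, adjusted p = 0.0209) for the high and 1.46 (SE 0.35, adjusted p = 0.0248) for the low polysome. Each of these passed in 12 of 16 alternative fits, and neither did when WT gradient 2 or 3, or KO gradient 3, was left out. *Rpl36a* (chrX:134585654-134588062, plus strand) was at 21, 28.5 and 25 CPM in the WT monosome libraries, 15.1, 20.3 and 7.83 CPM in the WT low polysome and 16, 19.8 and 18.5 CPM in the WT high polysome. For *Rpl36a* in KO, the values were 16, 16.9 and 20.1 CPM, 16, 5.98 and 12.5 CPM and 12.2, 14 and 8.05 CPM in the same order of fractions. Values of *Rpl36a*, which lies by the exit site for tRNA, were low in the 3 libraries that stood apart, and the interaction was -0.19 (SE 0.42, adjusted p = 0.788) with them and 0.05 (SE 0.27, adjusted p = 0.927) without them.

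*Rpl15* (chr14:18267823-18271391, minus strand) was at 106, 84 and 74.7 CPM in the WT monosome libraries, 23.2, 29.6 and 9.98 CPM in the WT low polysome and 63.2, 104 and 75.3 CPM in the WT high polysome. For *Rpl15* in KO, the values were 39.3, 40 and 47.3 CPM, 28.1, 12.6 and 30 CPM and 70.8, 81 and 44.3 CPM in the same order of fractions. *Rpl15*, a protein mutated in Diamond-Blackfan anaemia, had WT high polysome values that overlapped those of the monosome and a low polysome below both, with a difference between high and low polysome of 2.07 (SE 0.33, adjusted p = 1.65e-05). Its interaction for the high polysome was 0.71 (SE 0.42, adjusted p = 0.252) with all libraries and 0.96 (SE 0.24, adjusted p = 0.00648) without the 3 that stood apart. *Rpl27* (chr11:101442298-101445529, plus strand) was at 20.2, 18.5 and 18.4 CPM in the WT monosome libraries, 7.2, 6.17 and 1.9 CPM in the WT low polysome and 13, 18.8 and 14.7 CPM in the WT high polysome. For *Rpl27* in KO, the values were 15.4, 14.3 and 18 CPM, 5.49, 2.04 and 5.5 CPM and 14.9, 9.96 and 1.94 CPM in the same order of fractions. *Rpl27* was at 1.94 CPM in KO high polysome gradient 3, against 14.9 and 9.96 CPM in the other KO gradients. It had both the most negative KO difference in the high polysome, -1.25 (SE 0.46, adjusted p = 0.0301), and the most negative interaction, -0.99 (SE 0.64, adjusted p = 0.293). Without the 3 libraries that stood apart these were -0.35 (SE 0.20, adjusted p = 0.17) and -0.09 (SE 0.29, adjusted p = 0.866), and neither passed.

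*Rpl14* was at 1430.5 ± 65.3 CPM in the WT monosome, with a ratio of -1.0 ± 0.26 in WT and -0.13 ± 0.413 in KO, and its interaction of 0.87 (SE 0.25, adjusted p = 0.0219) passed, but not when WT gradient 2 or 3, or KO gradient 3, was left out. *Rpl21* was at 19.8 ± 1.78 CPM in the WT monosome, with a ratio of -1.35 ± 0.29 in WT and -0.48 ± 0.494 in KO, with an interaction of 0.88 (SE 0.30, adjusted p = 0.0455) that held in 4 of 16 alternative fits. Without the 3 libraries that stood apart, the interaction of *Rpl21* was 0.92 (SE 0.34, adjusted p = 0.0558) and did not pass. Of the others, none passed the test of the interaction with all libraries. *Rpl6* was at 40.4 ± 8.8 CPM in the WT monosome, with a ratio of -0.54 ± 0.546 in WT and 0.12 ± 0.163 in KO. *Rpl7a* was at 20.7 ± 1.87 CPM in the WT monosome, with a ratio of -1.11 ± 0.417 in WT and -0.86 ± 0.744 in KO. The translation level of *Rpl13*, at 1006 ± 99.3 CPM in the WT monosome, was -1.35 ± 0.615 in WT and -0.52 ± 0.53 in KO. *Rpl18*, mutated in rare cases of Diamond-Blackfan anaemia, was at 305 ± 64.4 CPM in the WT monosome, with a ratio of -0.65 ± 0.552 in WT and -0.19 ± 0.31 in KO. *Rpl22*, an RNA-binding protein that also controls splicing of its own paralog, was at 4103 ± 232 CPM in the WT monosome, with a ratio of -2.43 ± 0.0917 in WT and -2.35 ± 0.172 in KO. *Rpl28* was at 12 ± 4.9 CPM in the WT monosome, with a ratio of -1.25 ± 0.549 in WT and -0.63 ± 0.458 in KO. *Rpl29*, first described as a protein that binds heparin, was at 73.3 ± 8.4 CPM in the WT monosome, with a ratio of -1.80 ± 0.227 in WT and -1.22 ± 0.266 in KO.

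Among the smaller coat proteins, *Rpl30*, which represses its own pre-mRNA splicing in yeast, was at 359.9 ± 25.7 CPM in the WT monosome, with a ratio of -1.64 ± 0.347 in WT and -1.27 ± 0.563 in KO. *Rpl32* was at 1892 ± 133 CPM in the WT monosome, with a ratio of -1.21 ± 0.304 in WT and -0.72 ± 0.324 in KO. *Rpl34* was at 449.8 ± 25.4 CPM in the WT monosome, with a ratio of -1.46 ± 0.0872 in WT and -1.28 ± 0.172 in KO. For *Rpl35a*, another gene mutated in that anaemia, the level was 398 ± 26.6 CPM and the translation level -1.44 ± 0.307 in WT and -1.27 ± 0.532 in KO. *Rpl37* was at 2048 ± 140.4 CPM in the WT monosome, with a ratio of -1.58 ± 0.2 in WT and -1.35 ± 0.336 in KO. *Rpl37a* was at 1908 ± 242 CPM in the WT monosome, with a ratio of -2.41 ± 0.176 in WT and -2.07 ± 0.308 in KO. *Rpl38*, whose loss disturbs translation of Hox mRNAs and the axial skeleton in mice, was at 986 ± 18.7 CPM in the WT monosome, with a ratio of -1.54 ± 0.213 in WT and -1.52 ± 0.209 in KO. All 7 of these mRNAs were lower in the KO monosome with all libraries, although the calls of *Rpl35a*, *Rpl32* and *Rpl30* were lost in some alternative fits, as given above.

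Coding length went along with where these mRNAs sat. Over the 45 members, whose longest annotated reading frames ran from 138 to 1257 nt, the rank correlation of length (Spearman) with the WT difference between high and low polysome was 0.66, and with the KO effect on the translation level 0.55. In 5270 other protein-coding genes of the same length range it was 0.41 and 0.35, and over all 11728 other protein-coding genes 0.09 and 0.55. With the WT translation level itself it was 0.33 over the members, 0.24 over the genes of the same length range and 0.03 over all the others. The members and the other genes share the same libraries, and these are descriptions across genes. Of the 23 members of 480 nt or more, 10 had a called rise in translation level in KO with a median of 0.83, against 3 of the 22 shorter members with a median of 0.42, where 10.7% of all genes had such a call. The 5270 other genes had a median KO effect of -0.32, against 0.57 for the members, and a median WT difference between high polysome and monosome of 0.09, against -1.54. In the KO monosome they had a median difference of 0.14, against -1.10.

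**Figure D5:**
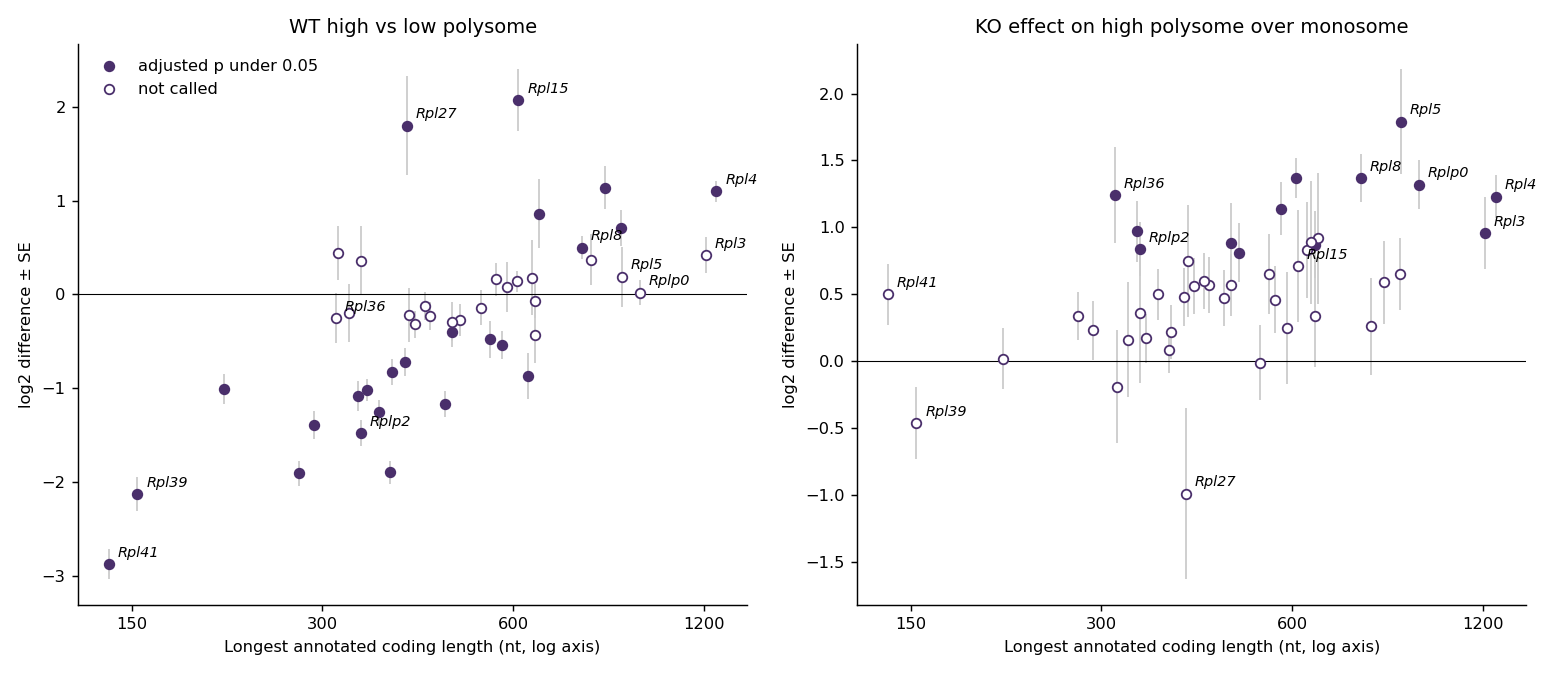
The WT difference between high and low polysome and the KO effect on the ratio of high polysome to monosome (both log2, vertical axes) against the longest annotated coding length in nt (log axis), with 1 point per member, filled where it passed, and bars for the SE. The rank correlation is 0.66 for the first and 0.55 for the second over 45 members, with *Rpl41* at 138 nt at the short end and *Rpl4* at 1257 nt at the long end.

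The members with the TOP letters exactly at an annotated start were compared by the same counts. Of these 7, *Rpl14* and *Rplp2* had a called rise in translation level, with a median KO effect of 0.71, against a background of 10.7% of all genes called. Of the 26 other members with a RefSeq entry 6 did, with a median of 0.48, and of the 12 without an entry 5 did, with a median of 0.76. In the KO monosome the medians were -1.10, -0.93 and -1.19. *Rpl5*, *Rpl4*, *Rplp0* and *Rpl9*, printed above, are among the 26 and have no such stretch within 5 bases of the annotated start. *Rpl13a* and *Rpl12*, which also had a called rise, are among the 26 too, and their stretch begins 2 bases after the start. This split therefore cannot separate mRNAs with a TOP tract from those without. With Gencode starts in place of RefSeq starts, 10 of 45 members (22.2%) against 693 of 11724 protein-coding genes (5.91%) had the stretch at the start.

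Genes that make, accompany or imitate the 60S proteins were described by the same fits. These fits take no account of coding length, whose rank correlation with the KO effect was 0.55 over 11728 other protein-coding genes. The part of length in the counts of these lists was not tested. Of 18 other TOP mRNAs, which include those of elongation and initiation factors, 13 had a called rise in translation level in KO and 0 a fall, with a median of 1.30. Over all genes, 10.7% had a called rise and 7.09% a called fall. The largest were *Eef2*, the translocase, at 2.17 (SE 0.28, adjusted p = 9.88e-05) and *Eef1g*, a subunit of the exchange factor of the other elongation factor, at 1.92 (SE 0.21, adjusted p = 2.81e-05). In the monosome 16 of the 18 were lower in KO and 0 higher, with a median of -1.28, against 20.1% and 18.6% of all genes. Of 52 60S assembly factors 17 rose and 1 fell, with a median of 0.49, led by the methyltransferase *Ftsj3* at 1.28 (SE 0.26, adjusted p = 0.00316) and the scaffold *Pelp1* at 1.21 (SE 0.25, adjusted p = 0.00329). Of 5 genes listed as chaperones and carriers, *Nap1l1* alone passed, at 0.80 (SE 0.16, adjusted p = 0.00319), and it is also listed among the TOP mRNAs. Of 16 regulators of TOP mRNAs 3 rose and 3 fell, and the largest differences were those of *Rheb*, the activator of mTOR, at -1.53 (SE 0.43, adjusted p = 0.0199) and of *Cnbp*, a protein that binds TOP mRNAs, at -0.97 (SE 0.21, adjusted p = 0.00409). Of 4 genes of the p53 response to free ribosomal proteins that were tested, *Cdkn2a* alone passed, at -1.09 (SE 0.27, adjusted p = 0.00866). Among markers of cell type, *Dppa5a* fell by 2.16 (SE 0.63, adjusted p = 0.0223) and *Tfcp2l1* rose by 0.55 (SE 0.17, adjusted p = 0.0272) among 10 ESC genes, and *Dnmt3b*, *Krt8* and *Thy1* passed among the primed, trophoblast and fibroblast genes, at 0.95 (SE 0.21, adjusted p = 0.00471), 1.61 (SE 0.50, adjusted p = 0.0326) and -2.17 (SE 0.49, adjusted p = 0.00526). Of the 7 other 60S protein genes and paralogs that the naming rule leaves out, 0 rose and *Rpl39l* alone fell, at -1.15 (SE 0.24, adjusted p = 0.00337).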

How the data were processed

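Polysome fractions of WT and *Ddx6* KO ESCs were sequenced as 18 libraries with the QuantSeq 3′ FWD kit, and the authors deposited raw counts per gene. Per the labels and the study's methods, reads were trimmed with cutadapt 1.14, aligned to mm10 with STAR 2.5.3a, restricted to unique alignments and counted per gene of Gencode M14 with featureCounts 1.5.3, and replicates were not pooled. Reads carry no molecular identifiers in these counts, so PCR duplicates are counted and counting error is a lower limit.

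Gene identifiers were matched to Gencode M21 (51274 of 51467 genes, with 99.99% of counts), which also gave coding lengths. The 92 ERCC sequences were left out of the fits, and 0 columns of other samples were found. Genes with at least 3 CPM in 3 libraries (12705) were scaled by TMM (edgeR 4.0.16) and fitted with limma 3.58.1 (voom, 1 mean for each of 6 groups, all 18 libraries, R 4.3.3), with Benjamini-Hochberg adjustment over all genes and a threshold of 0.05. The 8 comparisons were 3 of fractions within WT, KO against WT in 3 fractions, and 2 interactions. Ratios of single gradients used a pseudocount of 0.5 CPM. The fits were tested on simulated data.

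Each library lies between 2543617 and 11474550 counts, and a member at the filter then rests on few reads. Groups were taken from the labels. Fractions with the same number came from 1 gradient, and their deviations from the group means correlated with r between -0.17 and 0.46 over 18 pairs, while WT and KO share numbers only by name. No source says whether gradients were of separate cultures beyond the clones, so p-values measure the spread between these gradients. Replicate libraries differed by more than counting noise.

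The members and lists were chosen with earlier results of these data known. Members were named with their level and both translation levels, and 1 of the 45 stayed in every count but is not reported singly here. Values in every library were given for the members with the lowest and highest WT ratio (3 each), the largest interaction (4 in each direction), the largest KO difference in each fraction and direction, the P-stalk and 5S proteins, and the shortest and longest reading frame. Other genes were named as the 2 with the largest called interaction of each list, or all where 4 or fewer passed. Alternatives were other scalings, no filter, edgeR quasi-likelihood, DESeq2 1.42.0, the compared groups alone, a replicate block, leaving out each gradient, subtracting a lowess trend on coding length, adding pseudogene counts, and, chosen after seeing the data, leaving out the 3 libraries that stood apart. RefSeq start windows are of GRCm38.p6, the assembly behind mm10.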

Additional observations from a re-analysis of the deposited data

Results flagged for a closer look

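The interaction test found a different ratio of high polysome to monosome in KO than in WT for 13 members, all higher in KO, with 3 gradients in each group. The log2 differences (limma) were 1.79 for *Rpl5*, 1.37 for *Rpl13a*, 1.37 for *Rpl8*, 1.32 for *Rplp0*, 1.24 for *Rpl36*, 1.23 for *Rpl4* and 1.14 for *Rpl9*. They were 0.97 for *Rplp1*, 0.96 for *Rpl3*, 0.88 for *Rpl21*, 0.87 for *Rpl14*, 0.84 for *Rplp2* and 0.81 for *Rpl12*. For the ratio of low polysome to monosome the same test passed for 5, at 1.46 for *Rpl36*, 1.25 for *Rpl13a*, 1.19 for *Rplp0*, 1.12 for *Rpl8* and 1.02 for *Rpl4*, with the same monosome libraries in both ratios. The KO gradients came from 2 clones, and their part in these differences was not tested.

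Outside the main measurement, annotated pseudogenes named after members held 30807 counts over the 18 libraries, in a table of uniquely mapped reads. Added to their members, these counts gave 14 called for the high polysome interaction. The 92 ERCC sequences held 1006 counts over the 18 libraries, from 28 to 169 per library, although no source mentions a spike-in. Their part in any result was not tested.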

How the results depend on the processing

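Over all alternatives, 325 summary values of the members stayed within their limits, 35 moved and 1 reversed, and of the values of single named members 1126 kept direction and call, 61 lost the call and 3 reversed. Subtracting the trend on coding length moved most: the median became -1.16 for WT high polysome and -1.60 for WT low polysome against monosome. For WT high against low polysome it turned to 0.34 with 17 higher and 5 lower, and 13 of all the members reversed with a call. Among the members given in every library, *Rplp1* (0.08) and *Rpl39* (0.25) changed sign there. The KO median became -1.31 in the monosome and -0.25 in the high polysome, where 2 were called higher and 9 lower and *Rpl41* turned to 0.13, and 1 was called higher in the low polysome. The interactions rose to 28 called with a median of 1.07 for the high and 14 with 0.84 for the low polysome. This trend comes from all protein-coding genes of a library and its cause was not tested. The shares of all genes called with it subtracted are not given here. In the KO high polysome, 0 were called higher with size factors of DESeq2, library size alone, no filter, DESeq2, the compared groups alone and added pseudogene counts. Leaving out 1 gradient gave 0 to 0 called higher and 14 to 20 called lower there (14 without KO gradient 3), and 0 to 1 called lower for the low polysome interaction. That 1, *Rpl39*, was also called with library size alone, with DESeq2, and without the 3 libraries that stood apart, which gave 9 called higher and a median of -0.31 for WT high against low polysome. The cause of these changes was not tested. A pseudocount of 2 CPM gave a WT single-gradient median of -1.45, and pseudogene counts raised the share to 1.74% in the WT low and 0.831% in the KO high polysome.

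With a replicate block for the gradient, 41, 40 and 16 members were called lower in WT high against monosome, low against monosome and high against low, 6 higher in the last, and 13 and 7 higher for the high and low polysome interactions, with *Rpl21* lost and 1 other member gained for the high, and *Rpl27a* and *Rplp1* gained for the low. With a replicate block for the number that WT and KO share, 42, 28 and 23 were called lower by fraction. Deviations of same-numbered WT and KO libraries correlated with r between -0.48 and 0.24 over 9 pairs, and 9 of 18 libraries correlated best with their own number. No block moved a count of calls by over 1.5 times. Depth limits the members near the filter, such as *Rpl10*, *Rpl10a*, *Rpl5* and *Rpl27*, with 12 to 17 reads in their lowest library.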

Other observations

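The genes around the naming rule did not move as 1 group. These were chosen after their values were seen. *Rpl10l*, a retrogene copy of *Rpl10* best known from testis, was at 55.5, 48.6 and 38.8 CPM in the WT monosome and at 188, 211 and 195 CPM in the KO monosome. In the high polysome it was at 154, 130 and 136 CPM in WT and at 499.6, 583 and 716 CPM in KO. KO lay above WT with no overlap in both, with log2 differences of 2.09 and 2.09 (limma, SE 0.19 and 0.16, adjusted p = 5.25e-08 and 3.44e-09), and the ratio of the fractions did not pass (log2 -0.00, adjusted p = 0.995). *Rpl39l*, the paralog of *Rpl39*, was at 204, 202 and 189 CPM in the WT high polysome and at 22.9, 36.1 and 42.8 CPM in KO, a difference of -2.59 (SE 0.17, adjusted p = 5.23e-10) by limma. *Rpl22l1*, the paralog of *Rpl22*, was lower in KO in the high polysome by -0.92 (SE 0.16, adjusted p = 0.000123). Reads shared between a gene and a near-identical copy were left out by unique mapping, and the effect of this on these paralogs was not tested.

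*Rpl24* was the 1 symbol that fit the rule but not the filter, with 61 counts over the 18 libraries and 9 at most in one of them, so its level could not be followed at this depth.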
